A study of Homo sapiens with 6 samples.

Results

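The genes described here encode nucleolar factors that assemble ribosomes. They were chosen by name: every gene whose symbol is NOP, UTP or RRP followed by a number and an optional letter, 27 genes, and 18 further nucleolar genes named one by one, from nucleolin (NCL) to PPAN. Of these 45, GNL3 was not analysed here, which left 44 among the 18132 genes on the array. Messenger RNA of NCI-H929, as the labels name the cells, was measured on 6 Affymetrix arrays; NCI-H929 is a multiple myeloma line of human origin. In 3 of them, called PRMT5_down, the cells carried a lentivirus directed against PRMT5, and in the other 3, the controls, a control lentivirus. The labels call both viruses sponges, while the treatment protocol describes a short hairpin RNA in the pLKO.1 vector with puromycin selection. All cells were collected at one time point, and the stated question was which genes PRMT5 may control. Each group carries replicate numbers 1 to 3. Separate cultures are not mentioned in the labels, and the p-values therefore reflect the spread among these arrays alone, which could be technical.

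Ribosomes are built in the nucleolus. RNA polymerase I makes a long precursor RNA, which is folded, chemically modified and cut while ribosomal proteins are added. Box C/D particles guide methylation of the ribosomal RNA and box H/ACA particles guide its conversion to pseudouridine. The small subunit processome, which holds many UTP and RRP proteins, shapes the precursor of the small subunit, and a separate set of factors around PES1, BOP1 and WDR12 builds the large subunit. Many of these genes are known targets of MYC. PRMT5 places symmetric dimethyl marks on arginines, and several nucleolar proteins such as fibrillarin and nucleolin carry stretches rich in glycine and arginine that are methylated in cells. The arrays measure messenger RNA and not those marks.

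The signal is a log2 value per probe set, with array medians of 5.29 to 5.32, and 3 arrays per group limit the precision. Controls 1, 2 and 3 read 9.93, 10.35 and 10.30 for PRMT5 itself, and PRMT5_down 1, 2 and 3 read 8.63, 9.65 and 9.37. All PRMT5_down values were below all controls, with a log2 difference of -0.98 (SE 0.28), which did not pass over all genes (limma adjusted p = 1.0, and 0.21 with the replicate number as a block). The difference was -1.30, -0.70 and -0.93 within replicate numbers 1, 2 and 3. The markers did not bear out the labelled cell type: most plasma cell genes were weak or undetected, while every measured erythroid gene was detected. What the cells are was not tested further. Of 16 plasma cell markers 8 were above background on all 6 arrays, where background is the 95th percentile of 333 olfactory receptor genes. These were XBP1, CCND2, NSD2 and FGFR3, with control means of 10.46, 10.32, 9.08 and 8.54, and SDC1, PRDM1, FCRL5 and IGHA1. Control means of SDC1, PRDM1, FCRL5 and IGHA1 were 5.35, 5.78, 5.56 and 5.68, close to the background of 4.89 to 5.01. IRF4, CD38, TNFRSF17, MZB1, POU2AF1, SLAMF7 and IGKC were at or below it on every array, and JCHAIN was above it on 5. The mean was lower in PRMT5_down for 14 of the 16, where 10057 of all 18132 genes were lower. The 7 at or below background are all among these 14, so their signs may be noise. The median log2 difference of the 16 was -0.06, and their summed signal spanned 11.75 to 12.21 in log2 units in controls and 11.64 to 12.36 in PRMT5_down. All 10 measured erythroid markers were above background on every array, GATA1 and KLF1 among them. Control means were 13.39 for HBE1, 11.20 for TFRC, 11.13 for HBZ, 10.23 for KLF1, 10.12 for GATA1 and 10.06 for ALAS2. They were 7.10 for EPOR, 6.75 for SLC4A1, 6.74 for HBB and 5.99 for AHSP. Of those 10, 9 had a higher mean in PRMT5_down, with a median log2 difference of 0.24, and their summed signal spanned 14.03 to 14.45 in log2 units in controls and 14.37 to 14.72 in PRMT5_down. The largest differences were 1.58 (SE 0.58) for AHSP and 1.00 (SE 0.36) for SLC4A1, while HBB was at -0.07. With the replicate number as a block, 6 of the 10 had a limma unadjusted p under 0.05. That compares with 8.25% of all genes and 10.4% of genes above background on all 6 arrays, and none of the 10 passed after adjustment. In such bulk RNA, fewer cells of a type and less RNA per cell cannot be told apart. The part of these marker differences in the results for nucleolar genes was not tested.

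The nucleolar assembly genes were expressed on these arrays, and none passed the test between PRMT5_down and control. Signal exceeded background on every array for 43 of the 44, and UTP14A was at or below it throughout on its only probe set with a single symbol. Limma called 0 of the 44 at an adjusted p under 0.05, where it called 0.0% of all genes, and 0 of the 44 had an unadjusted p under 0.05, against 0.822% of all genes. The mean was higher in PRMT5_down for 30 genes and lower for 14. The share higher was 68.2%, against 43.3% of all genes and 50.1% of the 10215 genes above background on all 6 arrays. The median log2 difference was 0.07, against -0.02 over all genes and 0.003 over those 10215. Single differences ran from -0.23 for NOP53 to 0.41 for NOP2, and both moved by more than 1.5 times with 1 array left out, as given with each gene.

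That shift was uneven between replicate numbers. In number 3, 33 genes were higher in PRMT5_down, with a median log2 difference of 0.135, where 44.0% of all genes were higher. In number 1, 23 were higher, with a median of 0.015, against 40.1% of all genes. In number 2, 19 were higher, with a median of -0.01, against 48.0% of all genes. Of the 10215 genes above background on all 6 arrays, 46.5%, 50.7% and 49.4% were higher in numbers 1, 2 and 3. Differences were also smallest in size in number 2, where the median absolute log2 difference was 0.055 for the nucleolar genes and 0.08 for all genes. It was 0.135 and 0.13 in number 1 and 0.18 and 0.14 in number 3. Over the genes above background it was 0.14, 0.07 and 0.17 in numbers 1, 2 and 3. Leaving out 1 array moved the median most without PRMT5_down replicate 2 (0.015), without control replicate 1 (0.021), without PRMT5_down replicate 3 (0.025) or without control replicate 3 (0.037) on the low side. On the high side it stood at 0.14 without PRMT5_down replicate 1 and 0.14 without control replicate 2.

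**Figure D1:**
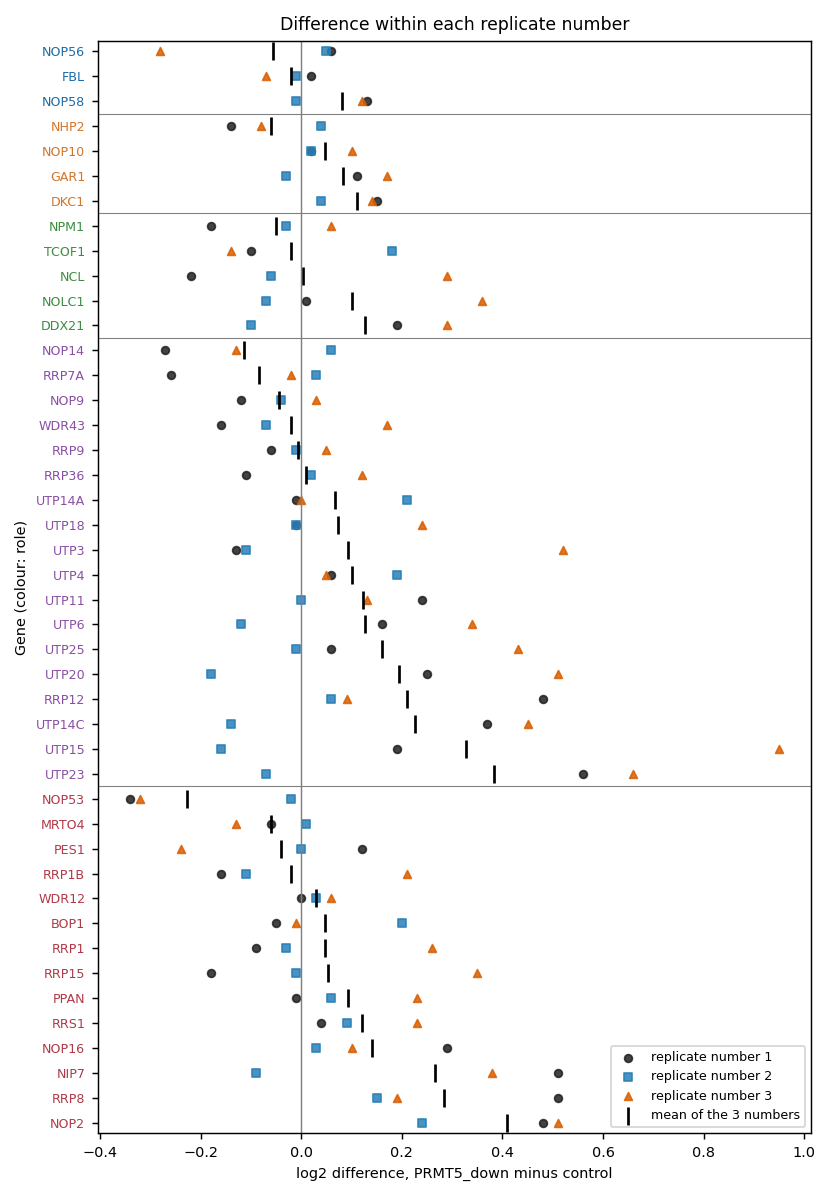
Log2 difference, PRMT5_down minus control, of each of the 44 genes within replicate numbers 1, 2 and 3 (points) and their mean (bar), with gene names grouped and coloured by role: box C/D proteins in blue, box H/ACA in orange, chaperones and scaffolds in green, small subunit factors in purple and large subunit factors in red. Role is shown by the colour of the gene names, and the replicate number by the symbol: circles for number 1, squares for number 2 and triangles for number 3. Most triangles lie right of 0, while the squares stay closest to 0.

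Of the 3 core box C/D proteins 1 had a higher and 2 a lower mean in PRMT5_down, all by less than 0.1. FBL, fibrillarin, the methyltransferase of the particle, read 12.19, 12.03 and 12.17 in controls (numbers 1, 2 and 3, here and in each list of 3 values that follows) and 12.21, 12.02 and 12.10 in PRMT5_down. The groups overlapped, and the log2 difference was -0.02 (SE 0.09), with a 95% confidence interval of -0.25 to 0.21. Unless stated, each SE and interval in this text is of the fit without a block, so it includes the spread between replicate numbers. NOP56, a scaffold protein of the same particle, read 10.28, 10.40 and 10.56 in controls and 10.34, 10.45 and 10.28 in PRMT5_down. Only its replicate 3 was lower in PRMT5_down, and the difference was -0.06 (SE 0.10). NOP58, its partner, read 10.66, 10.14 and 10.03 in controls and 10.79, 10.13 and 10.15 in PRMT5_down. Replicate 1 was high in both groups, and the difference was 0.08 (SE 0.25).

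Of the 4 box H/ACA proteins 3 had a higher mean in PRMT5_down, by small amounts. DKC1, dyskerin, the pseudouridine synthase, read 11.26, 10.99 and 10.88 in controls and 11.41, 11.03 and 11.02 in PRMT5_down. It was higher in each replicate number, by 0.15, 0.04 and 0.14, but the groups overlapped. Its difference was 0.11 (SE 0.16), with a 95% interval of -0.27 to 0.49. With the replicate number as a block, the SE was 0.08 and the interval -0.07 to 0.29. NOP10, a small protein bound to dyskerin, read 10.39, 10.40 and 10.64 in controls and 10.41, 10.42 and 10.74 in PRMT5_down, a difference of 0.05 (SE 0.13). It too was higher in every number, and the step between numbers 2 and 3 was larger than any step between groups. GAR1, which carries glycine and arginine rich ends, read 8.79, 9.11 and 8.77 in controls and 8.90, 9.08 and 8.94 in PRMT5_down, a difference of 0.08 (SE 0.12). NHP2, the fourth core protein, read 10.50, 10.90 and 10.88 in controls and 10.36, 10.94 and 10.80 in PRMT5_down, a difference of -0.06 (SE 0.19). For both, the groups overlapped.

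The abundant nucleolar chaperones and scaffolds also lay within the spread of the arrays. NCL, nucleolin, a major RNA-binding protein of the nucleolus, read 11.39, 11.53 and 11.31 in controls and 11.17, 11.47 and 11.60 in PRMT5_down. The difference was 0.00 (SE 0.14, 95% interval -0.33 to 0.33), made of -0.22, -0.06 and 0.29 in numbers 1, 2 and 3. NPM1, nucleophosmin, which chaperones ribosomal proteins and histones, read 12.61, 12.53 and 12.36 in controls and 12.43, 12.50 and 12.42 in PRMT5_down. Its difference was -0.05 (SE 0.09, 95% interval -0.28 to 0.18). NPM1 has 6 probe sets, with differences from -0.13 to 0.35, and processed copies of the gene elsewhere in the genome make its values uncertain. DDX21, an RNA helicase, read 11.91, 11.64 and 11.23 in controls and 12.10, 11.54 and 11.52 in PRMT5_down, a difference of 0.13 (SE 0.23). NOLC1, a scaffold that binds box particles, read 10.40, 10.83 and 10.22 in controls and 10.41, 10.76 and 10.58 in PRMT5_down, a difference of 0.10 (SE 0.18). DDX21 was called between replicate numbers (limma F test adjusted p = 0.011) and NOLC1 was not (0.058), and the groups overlapped for both. TCOF1, treacle, a factor of ribosomal RNA transcription, read 8.01, 7.99 and 8.32 in controls and 7.91, 8.17 and 8.18 in PRMT5_down. The groups overlapped at a difference of -0.02 (SE 0.13).

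Among 18 small subunit factors 13 had a higher mean in PRMT5_down and 5 a lower one, with a median of 0.10 and none called. UTP15, a subunit of the processome, read 6.69, 6.91 and 6.30 in controls and 6.88, 6.75 and 7.25 in PRMT5_down. Its difference of 0.33 (SE 0.20) came mostly from replicate number 3, at 0.95, and its other 2 probe sets differed by 0.16 and 0.10. UTP23, a factor of early cleavage, read 6.95, 6.65 and 6.32 in controls and 7.51, 6.58 and 6.98 in PRMT5_down. It was higher in numbers 1 and 3, by 0.56 and 0.66, and at -0.07 in number 2, for a difference of 0.38 (SE 0.27). RRP12, needed for maturation of both subunits, read 7.89, 8.42 and 8.34 in controls and 8.37, 8.48 and 8.43 in PRMT5_down. Control replicate 1 stood low, and the difference was 0.21 (SE 0.15).

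UTP4, also known as cirhin, was 1 of 2 nucleolar genes whose groups did not overlap. It read 9.93, 9.80 and 9.97 in controls and 9.99, 9.99 and 10.02 in PRMT5_down. Its highest control and lowest PRMT5_down value were only 0.02 apart, and the log2 difference was 0.10 (SE 0.08). The remaining small subunit factors with a higher mean were UTP14C at 0.23, UTP20 at 0.19, UTP25 at 0.16, UTP6 at 0.13, UTP11 at 0.12, UTP3 at 0.09, UTP18 at 0.07, UTP14A at 0.07 and RRP36 at 0.01. Those with a lower mean were NOP14 at -0.11, RRP7A at -0.08, NOP9 at -0.04, WDR43 at -0.02 and RRP9 at -0.01. UTP14C arose as a retrotransposed copy of UTP14A, so the signals of both are uncertain, and a probe set shared by both was not used. It read 7.52 to 8.08 over the arrays, so absence of UTP14A is not shown. UTP14C also shares probe sets with ALG11. RRP7A likewise shares a probe set with the related RRP7BP.

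Of the 14 large subunit factors 10 had a higher mean in PRMT5_down and 4 a lower one, with a median of 0.05 and none called. NOP2, a methyltransferase of the large ribosomal RNA, had the highest difference of all 44 in the planned fit. It read 6.88, 7.17 and 7.58 in controls and 7.36, 7.41 and 8.09 in PRMT5_down. The groups overlapped, yet within each replicate number NOP2 was higher in PRMT5_down, by 0.48, 0.24 and 0.51. The difference was 0.41 (SE 0.26) without a block and had an SE of 0.09 with the replicate number as a block, and it passed in neither (limma adjusted p = 1.0 and 0.46). Its 3 probe sets, all above background, gave 0.41 to 0.43. With 1 array left out, the difference was lowest without PRMT5_down replicate 3 (0.175) or without control replicate 1 (0.245), and highest without control replicate 3 (0.595). UTP23 exceeded NOP2 without control replicate 1 (0.54), without PRMT5_down replicate 2 (0.605 against 0.515), without PRMT5_down replicate 3 (0.405) and with the most variable probe set (0.44 against 0.43). UTP23 was not the only such gene. UTP14C (0.308), NIP7 (0.295) and others exceeded NOP2 without PRMT5_down replicate 3. So did DDX21 (0.285) without control replicate 1 and UTP20 (0.555) without control replicate 2.

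RRP8, nucleomethylin, a nucleolar methyltransferase, read 6.81, 6.59 and 7.05 in controls and 7.32, 6.74 and 7.24 in PRMT5_down. It was higher in all 3 numbers, by 0.51, 0.15 and 0.19, with a difference of 0.28 (SE 0.20). NIP7, a factor of late large subunit assembly, read 8.72, 8.99 and 8.60 in controls and 9.23, 8.90 and 8.98 in PRMT5_down, a difference of 0.27 (SE 0.14). It was higher in numbers 1 and 3, and its second probe set gave 0.30. NOP16 read 9.16, 9.42 and 9.40 in controls and 9.45, 9.45 and 9.50 in PRMT5_down, a difference of 0.14 (SE 0.10). It was the other gene whose groups did not overlap, and its highest control and lowest PRMT5_down value were 0.03 apart. Groups lay apart in that direction for 1.26% of all genes. After another quantile normalization the number of nucleolar genes with groups apart went from 2 to 0.

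NOP53, which recruits the RNA exosome to precursors of the large subunit, was the only gene of the 44 that was lower in every number. It read 11.93, 12.14 and 12.44 in controls and 11.59, 12.12 and 12.12 in PRMT5_down, and the groups overlapped. The difference was -0.23 (SE 0.20), with -0.34, -0.02 and -0.32 in numbers 1, 2 and 3. It came to -0.05 without PRMT5_down replicate 1 and -0.09 without control replicate 3, to -0.35 without control replicate 1, and to -0.07 with array weights. Of its other 4 probe sets 3 differed by -0.22 to -0.26 and 1 by 0.05. The 3 proteins of the complex that bears their names showed little: BOP1 differed by 0.05 (SE 0.18), WDR12 by 0.03 (SE 0.21) and PES1 by -0.04 (SE 0.18). The others were RRS1 at 0.12, PPAN at 0.09, RRP15 at 0.05, RRP1 at 0.05, RRP1B at -0.02 and MRTO4 at -0.06. PPAN, whose gene can be read through into its neighbour P2RY11, also shares a probe set with that joint transcript.

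**Figure D2:**
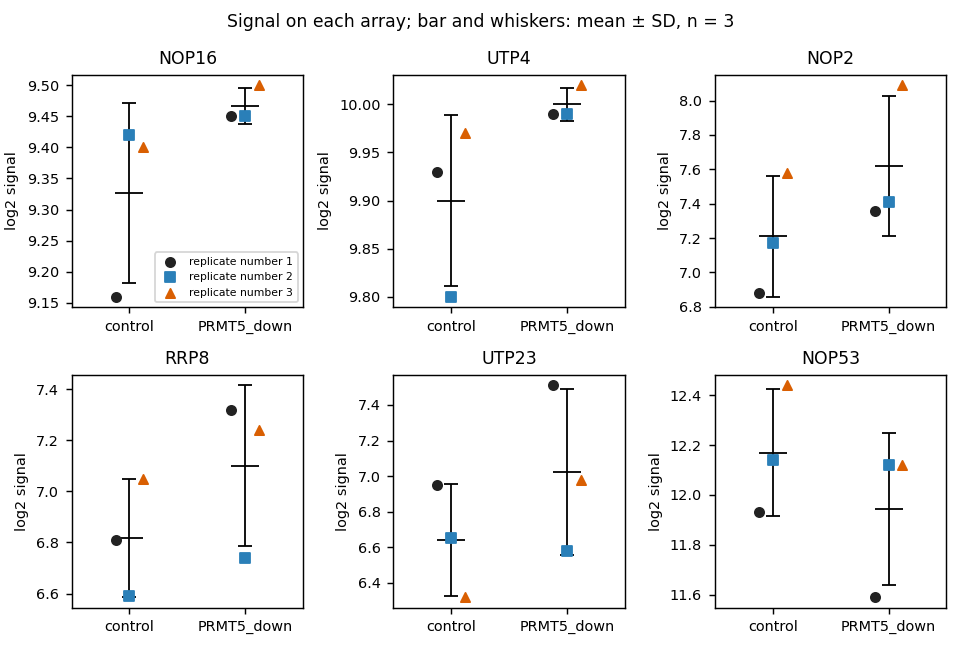
Log2 signal of NOP16, UTP4, NOP2, RRP8, UTP23 and NOP53 on each array, with the replicate number as symbol and the group mean ± SD (n = 3) as bar and whiskers; each panel has its own axis, which does not start at 0. NOP16 and UTP4 have groups that lie apart by 0.03 and 0.02, while NOP2, RRP8 and NOP53 overlap between groups and keep one direction within each number.

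Taking the replicate number into the model narrowed the errors without bringing any of these genes past the threshold. The SE went from 0.25 to 0.08 for NOP58 and from 0.57 to 0.08 for NOP9, but only from 0.20 to 0.18 for UTP15. Same-numbered arrays deviated together from the means of their groups (Pearson r across 18132 genes, which are not independent replicates, of 0.82, 0.72 and 0.79 for numbers 1, 2 and 3), so the numbers were taken as pairs. With that replicate block, limma gave 4 of the 44 an unadjusted p under 0.05, which is 9.09%, against 8.25% of all genes and 10.4% of genes above background on all 6 arrays. Those higher were the 3 genes NOP2, RRP8 and UTP23, where 4.44% of all genes were higher at such a p. The 1 gene lower was NOP53, where 3.81% of all genes were lower. Of the 10215 genes above background on all 6 arrays, 638 were higher and 422 lower at such a p. None of these 4 nucleolar genes passed after adjustment over all genes (limma adjusted p = 0.46 for NOP2, 0.57 for RRP8, 0.59 for UTP23 and 0.59 for NOP53). Of the 44, 8 were higher in all 3 numbers: DKC1, NOP10, NOP2, RRP8, NOP16, RRS1, RRP12 and UTP4. That compares with 11.7% of all genes, and NOP53, the only gene lower in all 3, with 15.2%. Of the 10215 genes above background on all 6 arrays, 1593 were higher and 1400 lower in all 3 numbers. With 1 pair left out, the block fit gave 1, 6 and 1 genes an unadjusted p under 0.05 without pair 1, 2 and 3.

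Counting only probe sets above background on all 6 arrays, most members with several of them gave the same direction on each. For 29 genes there were 50 other probe sets above background on all 6 arrays, and 41 of these had the sign of the brightest one. All other probe sets shared that sign for 21 of the 29 genes. The 8 exceptions were NCL, NPM1, TCOF1, UTP11, WDR43, MRTO4, RRP1 and NOP53. Dimmer probe sets of NOP16, UTP25, RRP1B and NOP9, not counted here, also had the opposite sign.

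Of 114 other genes of ribosome assembly, outside the 44, 74 had a higher mean in PRMT5_down, or 64.9%, with a median of 0.06 and 0 called. Small subunit factors outside the named families had 23 of 35 higher (median 0.06), with the processome protein DCAF13 at 0.37 (SE 0.20) and PDCD11 at 0.22 (SE 0.13). Large subunit factors had 21 of 34 higher (median 0.08), with CEBPZ at 0.25 (SE 0.20) and NLE1 at -0.28 (SE 0.22). Factors of export and cytoplasmic maturation had 11 of 15 higher (median 0.11), with the GTPases EFL1 at 0.28 (SE 0.15) and LSG1 at 0.31 (SE 0.19), which act on the late large subunit. The groups of EFL1 did not overlap, where 1.26% of all genes lay apart in that direction. The RNA exosome had 8 of 13 higher (median 0.05), with its nuclease DIS3 at 0.25 (SE 0.14) and EXOSC8 at -0.21 (SE 0.18).

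RNA polymerase I and its factors held both the lowest and the highest value among these 114 genes. Of 17, 11 were higher (median 0.06). RRN3, which brings the polymerase to the ribosomal DNA promoter, differed by 0.41 (SE 0.31), with overlapping groups and 0.66, -0.02 and 0.58 in numbers 1, 2 and 3. The subunits POLR1E and POLR1H differed by -0.33 (SE 0.08) and -0.23 (SE 0.09). Both had groups that did not overlap. In that direction 2.66% of all genes lay apart, and 134 of the 10215 genes above background on all 6 arrays. Neither subunit passed (limma adjusted p = 1.0 for both). MYC read 11.27, 11.10 and 11.25 in controls and 11.14, 11.16 and 11.32 in PRMT5_down, a difference of 0.00 (SE 0.10, 95% interval -0.23 to 0.23). Of 12 genes of the MYC network 8 were higher (median 0.03), and MYCN, not above background on any array, and MGA differed by -0.18 (SE 0.10) and 0.21 (SE 0.15). The largest difference of the network was -0.41 (SE 0.32) for MYCL, above background on every array. Its groups overlapped, with -0.74, -0.01 and -0.48 in numbers 1, 2 and 3. In none of these lists was a gene called by limma, without or with the replicate block. With 1 array left out, most of the medians turned sign. They ranged from -0.03 to 0.13 for RNA polymerase I (negative without PRMT5_down replicate 2 or without control replicate 1), from -0.01 to 0.18 for large subunit factors (without PRMT5_down replicate 2), from -0.002 to 0.16 for export factors (without control replicate 3), from -0.03 to 0.09 for the exosome (without control replicate 1 or without control replicate 3) and from -0.04 to 0.06 for the MYC network (without PRMT5_down replicate 3 or without control replicate 1). Small subunit factors stayed at 0.01 to 0.11.

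**Figure D3:**
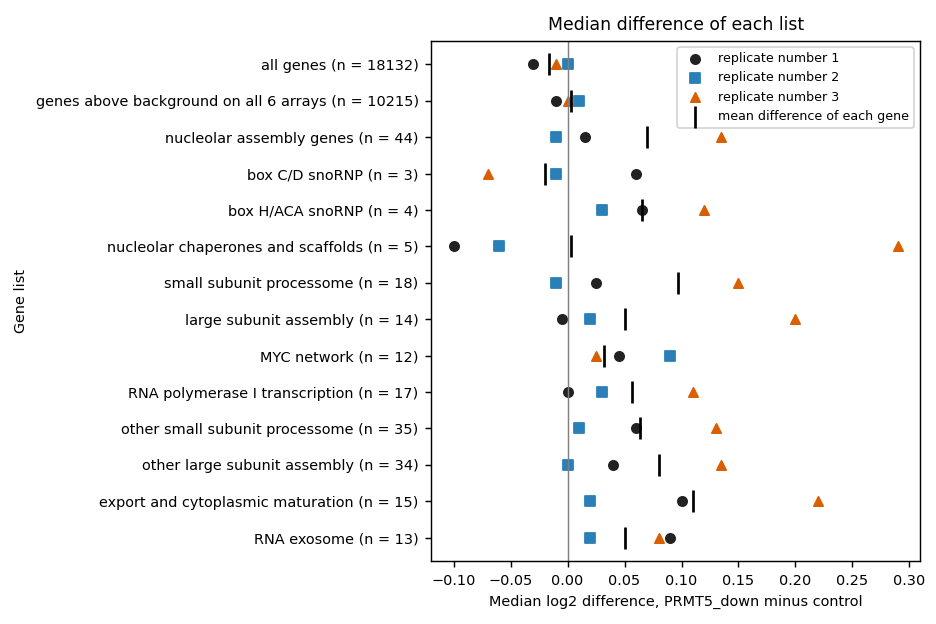
Median log2 difference, PRMT5_down minus control, of each gene list: bars give the median of the genes' mean differences, and points the median within replicate numbers 1, 2 and 3. Medians over all genes and over the genes above background sit within 0.03 of 0, and the 44 nucleolar genes at 0.07, with number 3 at 0.135.

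Many nucleolar genes differed between replicate numbers, in a share near that of expressed genes in general. With the group kept in the model, the limma F test called 25 of the 44 as different between numbers at an adjusted p under 0.05. That is 56.8%, against 35.1% of all genes and 54.9% of genes above background on all 6 arrays. By role, it called 1 of 3 box C/D genes, 2 of 4 box H/ACA genes, 1 of 5 chaperones and scaffolds, 10 of 18 small subunit factors and 11 of 14 large subunit factors. What a replicate number shares is not stated in the labels.

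NOP9, an RNA-binding protein of small subunit assembly, had the widest range of the 3 number means, each averaged over both groups, at 1.64 log2 units. It read 5.78, 6.94 and 7.34 in controls and 5.66, 6.90 and 7.37 in PRMT5_down, so that number 1 was low in both groups and the groups matched within each number (limma F test adjusted p = 0.00039). RRP7A, with a range of 1.01, and RRP1, with 0.965, were also lowest in number 1 in both groups. Of the 25 genes called, 15 were lowest in number 1, among them PPAN, RRP9, RRP36, RRS1 and NOP53. Another 7 were highest there, such as NOP58, DKC1, DDX21, WDR12 and UTP11. The remaining 3 were RRP8, UTP20 and UTP6, and UTP20 was highest in number 2, with 6.56 in the control and 6.38 in PRMT5_down. Genes of one particle thus lay on opposite sides: NHP2 was lowest and DKC1 highest in number 1.

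The 3' over 5' signal of the actin control, a measure of RNA integrity, also moved with the number. On the log2 scale, controls 1, 2 and 3 gave 1.09, 1.02 and 0.73, and PRMT5_down gave 1.22, 1.02 and 0.84. The GAPDH control gave 0.06 to 0.14 on all arrays. Their part in the differences between numbers was not tested. Without number 1, 2 or 3, the F test called 0, 16 and 6 of the 44, on 4 arrays each.

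**Figure D4:**
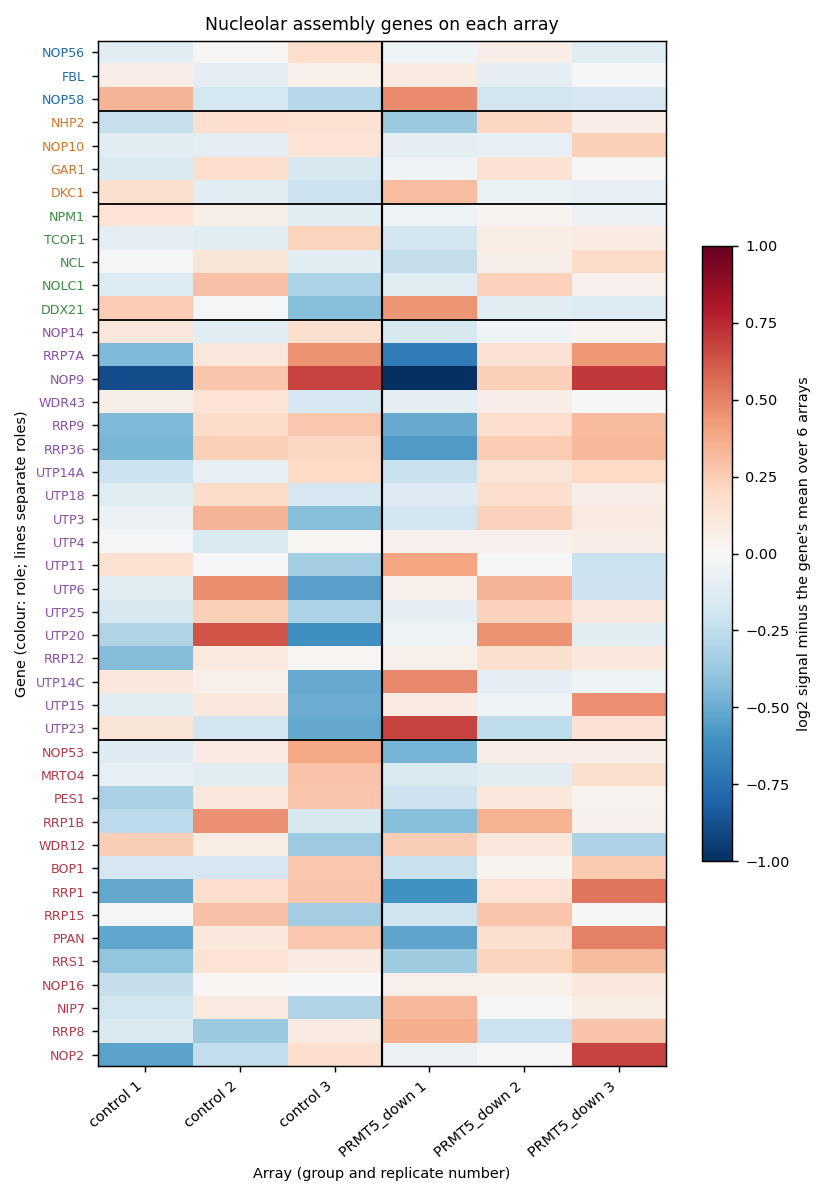
Log2 signal of each of the 44 genes (rows, grouped and coloured by role as in the plot of differences within each number) on the 6 arrays (columns), as the deviation from that gene's mean over all arrays; red is higher and blue lower. Columns of the same replicate number look alike in both groups, with RRP7A, NOP9, RRP9, RRP36, RRP1 and PPAN low in number 1.

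**Figure D5:**
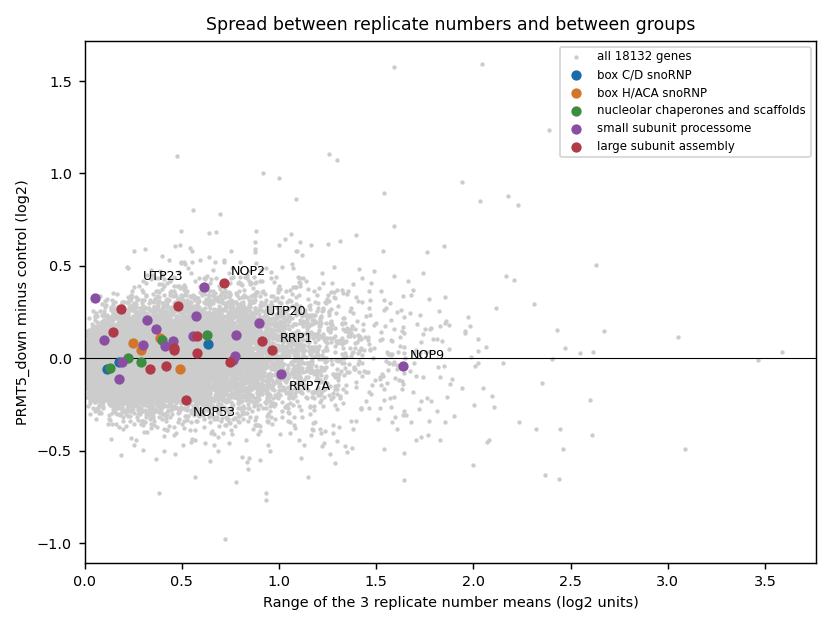
For each gene, the range of the 3 replicate number means (x axis, log2 units) against the difference between groups (y axis, log2); grey points are all 18132 genes and coloured points the 44 by role. NOP9 lies farthest right at 1.64 with a group difference of -0.04, and NOP2 highest at 0.41.

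Promoter sequence was read for the genes of interest between groups, namely those whose groups lay apart or whose unadjusted p with the replicate block was under 0.05. Of the 44 genes, 36 had an entry in the RefSeq promoter table of GRCh38.p14. The window of UTP23, also a gene of interest, is not reported here, since its chromosome was left out of the windows shown. The 250 bases before each gene's start were searched on both strands for the E-box CACGTG, the site that MYC and related factors bind, and for CCGGAAG, a core of ETS family sites. The E-box was present before 6 of the 36 (16.7%): DDX21, NOP10, UTP14A, UTP18, UTP20 and UTP4. Of all 14425 measured genes with an entry 9.82% held it. The ETS core was present before 12 of the 36 (33.3%), against 14.3% of all genes. For neither motif was the share among genes above background worked out, so neither is shown to be particular to nucleolar genes. These are matches of letters only, and the motifs do not overlap each other. Both motifs occurred before UTP4, the ETS core on both strands before NOP16, and neither before NOP2, RRP8 and NOP53. The windows of these 5 genes are at chr16:69132399-69132648 on the plus strand for UTP4, chr5:176388599-176388848 on the minus strand for NOP16, chr12:6568292-6568541 on the minus strand for NOP2, chr11:6603617-6603866 on the minus strand for RRP8 and chr19:47745296-47745545 on the plus strand for NOP53. Each is given in the direction of its gene, with matches in capitals.
UTP4: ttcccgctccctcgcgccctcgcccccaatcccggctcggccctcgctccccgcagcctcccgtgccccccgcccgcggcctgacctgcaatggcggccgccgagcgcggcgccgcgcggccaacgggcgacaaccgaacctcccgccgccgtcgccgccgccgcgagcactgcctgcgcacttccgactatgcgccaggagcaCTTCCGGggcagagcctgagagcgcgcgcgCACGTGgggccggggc
NOP16: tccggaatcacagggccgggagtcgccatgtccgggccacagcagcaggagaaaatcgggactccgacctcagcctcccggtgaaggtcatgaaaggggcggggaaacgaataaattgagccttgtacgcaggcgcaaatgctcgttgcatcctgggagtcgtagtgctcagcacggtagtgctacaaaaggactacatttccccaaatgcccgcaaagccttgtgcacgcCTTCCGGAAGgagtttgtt
NOP2: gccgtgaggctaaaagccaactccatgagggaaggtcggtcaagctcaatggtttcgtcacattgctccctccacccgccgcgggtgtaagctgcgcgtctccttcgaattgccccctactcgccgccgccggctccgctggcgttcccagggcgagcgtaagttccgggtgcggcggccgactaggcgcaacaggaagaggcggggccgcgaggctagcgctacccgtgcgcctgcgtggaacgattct
RRP8: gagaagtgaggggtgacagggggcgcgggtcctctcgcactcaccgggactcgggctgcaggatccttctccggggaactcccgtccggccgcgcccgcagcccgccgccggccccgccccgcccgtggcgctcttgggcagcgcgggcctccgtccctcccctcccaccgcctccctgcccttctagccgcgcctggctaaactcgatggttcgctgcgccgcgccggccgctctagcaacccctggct
NOP53: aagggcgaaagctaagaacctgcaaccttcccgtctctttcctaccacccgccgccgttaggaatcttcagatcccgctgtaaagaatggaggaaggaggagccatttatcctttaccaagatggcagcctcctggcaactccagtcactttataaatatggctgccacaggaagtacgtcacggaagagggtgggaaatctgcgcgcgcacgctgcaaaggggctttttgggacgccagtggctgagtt
In UTP4 the ETS core starts 46 and the E-box 16 bases before the gene's start, and in NOP16 the overlapping ETS cores start 19 and 16 bases before it.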

How the data were processed

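RNA of 6 samples was hybridised to 1 Affymetrix array each. The submitters' processing notes name RMA as the method with which the authors made the log2 signal of each probe set; its version and the chip definition were not stated in the sources at hand. Since RMA gives all arrays the same distribution, it would hide a shift common to most genes. No further normalization was applied.

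The table holds 49372 probe sets: 44988 with a single gene symbol, 1832 with several, 2473 with none in the annotation used, and 79 controls. Symbols followed RefSeq's table wherever a gene identifier matched, and the probe set with 1 symbol and the highest mean signal stood for each of 18132 genes. Differences, PRMT5_down minus control, were fitted over all genes with lmFit and eBayes of limma 3.58.1 (R 4.3.3), and p-values were adjusted by Benjamini and Hochberg with 0.05 as the limit. The planned fit has no block. Replicate numbers were taken to pair the arrays, since deviations of same-numbered arrays correlated at over 0.1. That pairing comes from the data and not from the labels.

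The members and lists were chosen with earlier results of these data known. Values on every array were given for NCL, NPM1, FBL, DKC1 and up to 4 further members of each role with the smallest limma p, and 2 genes of each other list were named by the same measure. NOP53, NOP9 and others outside this rule, and the F test between replicate numbers, were chosen after values were seen. No set test was run.

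The fit was tested on simulated data for the comparison of PRMT5_down and control, 18132 genes in all. Without the block it found 2% of genes simulated with a log2 change of 0.5, and 44%, 76% and 94% for changes of 1, 2 and 3, with no false call. With the replicate block these shares were 22%, 62%, 94% and 98%, and 1 unchanged gene was called. Noise was normal, with each gene's SD from the residuals of the block fit, and 50 genes were changed per size. In the real data AHSP at 1.58 and PRMT5 at -0.98 were not called with the block (limma adjusted p = 0.088 and 0.21). The shares may therefore overstate what the comparison can find. Alternatives tried were the block, another quantile normalization, a filter on dim genes, other probe set rules, variance models, array weights and left-out arrays.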

Additional observations from a re-analysis of the deposited data

How the results depend on the processing

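Limma called 0 genes as planned and under all other settings except the replicate block with trend and robust, chosen after seeing the data, where it called 3, PRMT5 among them and none of the 44 nucleolar genes. An unadjusted p under 0.05 was reached by 0 of the 44 as planned, by 4 with the replicate block, 4 with the replicate block, trend and robust, 1, 6 and 1 with the replicate block without pair 1, 2 or 3, and 0 to 1 with 1 array left out. Genes with groups apart went from 2 to 0 with another quantile normalization. Those with one direction in all 3 numbers went from 9 to 14 with the most variable probe set. The number of genes higher in PRMT5_down, 30 as planned, was 22 to 35 with 1 array left out, and the median difference 0.015 to 0.14. Genes called between numbers went from 25 to 0, 16 and 6 without number 1, 2 or 3, on fewer arrays. The median over all genes was 0.01 with the lowest 50% left out, against -0.02 as planned. The replicate block changed no call of a nucleolar gene. The causes were not tested.

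Small differences, none of them called, turned sign under other settings: RRP36 to -0.012 with another quantile normalization, NCL to -0.015, RRP1B to 0.035 and WDR43 to 0.025 with the mean of probe sets, MRTO4 to 0.02, NPM1 to 0.35 and UTP11 to -0.04 with the most variable probe set. With array weights DDX21 turned to -0.059, NHP2 to 0.075, NOP56 to 0.015, NOP58 to -0.086, NOP9 to 0.26, PES1 to 0.075, RRP1B to 0.074, RRP7A to 0.13, RRP9 to 0.15, TCOF1 to 0.084 and WDR12 to -0.041. With 1 array left out, differences that turned ranged as follows: DDX21 -0.063 to 0.28, DKC1 -0.018 to 0.22, NHP2 -0.19 to 0.11, NOP58 -0.14 to 0.27, NOP9 -0.50 to 0.45, PES1 -0.21 to 0.088, RRP1B -0.20 to 0.20, RRP7A -0.32 to 0.24, RRP9 -0.23 to 0.24, TCOF1 -0.078 to 0.087, UTP11 -0.043 to 0.26, WDR12 -0.14 to 0.19, WDR43 -0.11 to 0.045, FBL -0.07 to 0.025, NCL -0.09 to 0.12, RRP1 -0.21 to 0.36, RRP15 -0.11 to 0.21, RRP36 -0.21 to 0.29, UTP6 -0.12 to 0.39, BOP1 -0.072 to 0.19, NOP10 -0.062 to 0.13, PPAN -0.14 to 0.38, RRS1 -0.048 to 0.33, UTP14A -0.023 to 0.20, NPM1 -0.12 to 0.005, MRTO4 -0.15 to 0.068, NOLC1 -0.032 to 0.27, NOP56 -0.12 to 0.017, UTP20 -0.065 to 0.56, UTP3 -0.097 to 0.29.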
